A study of Homo sapiens with 6 samples.

Results

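The human genome carries a large set of genes named ZNF plus a number, and 249 of them were expressed in these U937 libraries at a level that allowed a test. They were chosen from a table of 58735 genes as protein-coding genes with such a name whose FPKM, averaged over the 6 libraries, was 1 or more (FPKM counts sequenced fragments relative to gene length and library size). The table held 509 protein-coding genes with such a name, of which 260 lay under that level and 78 had no read in any library. U937 is an established human myeloid leukaemia line. The 2 groups were U937 cells labelled shENO1, read here as cells with a short hairpin RNA against ENO1 (3 libraries), and wild-type U937 cells, written WT (3 libraries). ENO1 encodes alpha-enolase, a glycolytic enzyme. The study compared these groups to follow what the knockdown of ENO1 does to the transcriptome. The labels name no control hairpin or empty vector, do not say whether the knockdown cells are a clone or a pool, and give no word on separate cultures behind the 3 libraries per group. The p-values therefore measure how far these libraries spread, possibly for technical reasons only, and the hairpin, the vector and any selection cannot be told apart.

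Most ZNF genes encode proteins with arrays of C2H2 zinc fingers, short folds in which 2 cysteines and 2 histidines hold a zinc ion and whose arrays bind chosen DNA sequences. A large share of them also carry a KRAB box, a domain that recruits the corepressor TRIM28 and, through it, the histone H3 lysine methyltransferase SETDB1, heterochromatin proteins and DNA methyltransferases. KRAB zinc finger proteins are known for silencing transposable elements and for marking imprinted regions, and their genes lie in tandem clusters that are densest on chromosome 19. ZNF genes without a KRAB box include general promoter activators, chromatin complex subunits and proteins that bind RNA.

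The libraries held 14216739 to 17499636 reads in genes. ENO1 checked the group labels: it had 91.5, 82.7 and 111 FPKM in the shENO1 libraries, against 526, 545 and 561 FPKM in the WT libraries, which left 17.5% of the WT mean (exact two-sided permutation p = 0.1, the smallest value that 3 against 3 libraries allow). Of 12 myeloid markers 9 had a mean of at least 1 FPKM, SPI1, LYZ and CD33 among them, while MPO, CD68 and CD14 lay under it. Of these 9, 2 rose in shENO1 and none fell: CSF1R averaged 2.28 FPKM in shENO1 and 0.941 FPKM in WT, and FCGR1A averaged 3.72 FPKM in shENO1 and 2.11 FPKM in WT. The 12 markers summed to 888 to 1347 FPKM in the shENO1 libraries and 779 to 949.9 FPKM in the WT libraries, and none was at 0 in all libraries; their part in the ZNF results was not tested. None of the 3 T cell, 3 erythroid and 3 epithelial markers reached 1 FPKM, and 1 of 3 fibroblast markers did (COL1A1 at 1.20 FPKM). Of the B cell markers, CD79A had a mean of 5.47 FPKM and MS4A1 was listed at 0 in all libraries. Over all genes the second axis of a principal component analysis (27.3% of the variance, after 47.1% on the first) was spanned by shENO1 replicate 3 and WT replicate 3. The rank correlation of a library's deviations with gene length over 10032 protein-coding genes was 0.058, 0.254 and -0.375 in shENO1 replicates 1 to 3 and 0.013, -0.110 and 0.179 in WT replicates 1 to 3. Mitochondrial genes took 6.60% ± 0.856 of the reads in shENO1 and 4.02% ± 1.01 in WT (SD, n = 3 each). What these differences contribute to the ZNF values was not tested.

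The numbered ZNF genes were low in expression as a group. Their mean over the 6 libraries ran from 1.02 to 40.03 FPKM with a median of 3.18 FPKM, against a median of 8.57 FPKM for the other protein-coding genes tested. Between 1 and 2 FPKM lay 70 of them, between 2 and 5 FPKM 104, between 5 and 10 FPKM 38, and at 10 FPKM or more 37. Gene length did not set them far apart, with a median of 5426 bases of gene model against 5060 bases for the other protein-coding genes. The median gene drew 256 reads per library, and the lowest count of any of them in any library was 14 reads. Together they took 0.788% ± 0.0413 of all reads in genes in shENO1 and 0.748% ± 0.0187 in WT (SD, n = 3 each). The choice of genes used these levels, so the level distribution is a description only.

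Among the 249 genes, 25 rose in shENO1 cells (10.04%), 3 fell (1.20%) and 221 did not pass the test. The test was limma on log2(FPKM + 1) with p-values adjusted by the Benjamini-Hochberg method over all 12809 genes tested, at an adjusted p under 0.05. Over all genes tested 7.86% rose and 6.46% fell, and over the 10032 protein-coding genes 9.51% rose and 5.45% fell. The share of ZNF genes that rose was thus near that of protein-coding genes, and the share that fell was lower than that background. In bulk RNA, fewer cells with a transcript and less of it per cell cannot be told apart. Scaling on nuclear genes gave 31 ZNF genes that rose and 1 that fell (1396 and 501 over all genes, against 1007 and 828 as deposited), and removing the trend with gene length gave 16 and 7. Without adjustment, at p under 0.05, 57 of the genes were higher and 14 lower. At the same p 2088 of all 12809 genes tested were higher and 1972 lower. Of the 10032 protein-coding genes 1945 were higher and 1312 lower. The median log2 fold change was 0.09 for the ZNF genes, -0.02 for all genes tested and 0.02 for protein-coding genes. All 3 shENO1 libraries lay above all 3 WT libraries in 76 ZNF genes (30.5%; 19.6% of all genes and 23.3% of protein-coding genes), and all 3 lay below in 25 (10.04%; 17.9% and 16.5%). The list was chosen with earlier results of these data known and has no test of its own.

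**Figure D1:**
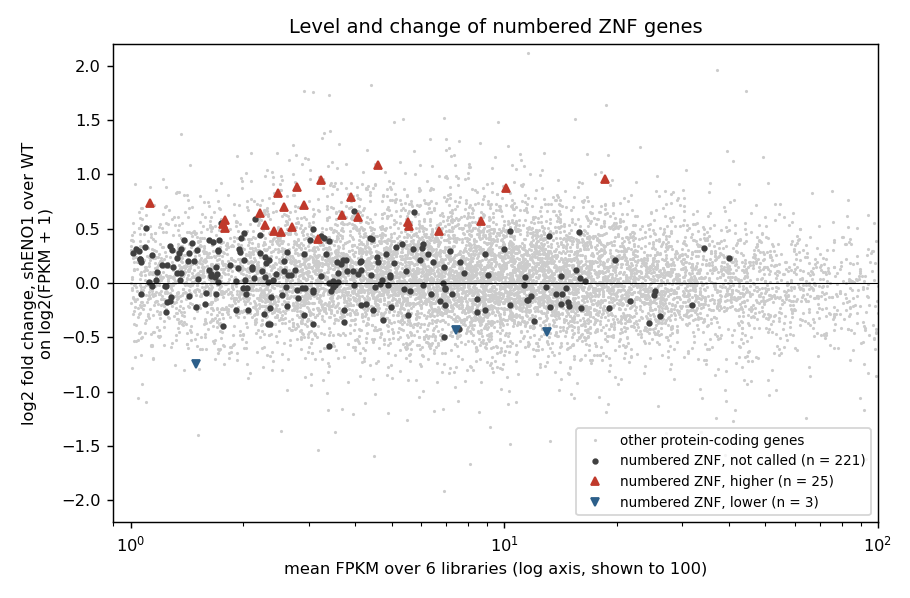
Each point is a gene, with its mean FPKM over the 6 libraries on a log axis and the log2 fold change of shENO1 over WT, on the log2(FPKM + 1) scale, on the other axis (a few points beyond the axes are not shown). Grey points are other protein-coding genes tested, black points the 221 numbered ZNF genes that did not pass, upward triangles the 25 that rose and downward triangles the 3 that fell; most ZNF genes lie at low FPKM and close to 0.

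Most of the genes that rose were weakly expressed, as was most of the list. Of 174 ZNF genes with a mean of 1 to 5 FPKM, 19 rose and 1 fell, and 123 had a positive log2 fold change. In the 3323 protein-coding genes of the same level 9.72% rose and 3.55% fell. Of 75 ZNF genes that averaged 5 FPKM or more, 6 rose and 2 fell, and 36 had a positive log2 fold change against 39 with a negative one (median -0.02). Whether the levels differ in response was not tested. The filter let 10 genes through with a WT mean under 1 FPKM and 1 gene with a shENO1 mean under 1 FPKM; among them ZNF747 rose and ZNF117 fell, and both reached the level rule through the group in which they were higher.

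The median deviation of the 249 genes from their own mean over the 6 libraries, on the log2(FPKM + 1) scale, was 0.04, 0.07 and 0.06 in shENO1 replicates 1 to 3, against -0.04, -0.07 and -0.06 in WT replicates 1 to 3. Over all protein-coding genes tested the medians had the same signs, at 0.001, 0.006 and 0.051 in shENO1 and -0.029, -0.010 and -0.005 in WT. Within a gene, the mean deviations of the groups lie on opposite sides of 0 by construction. The median of a library over many genes need not follow. Over all genes tested it was -0.010, -0.006 and 0.024 in shENO1 and 0.001, 0.010 and -0.0005 in WT. Nothing is read from the signs. For the 94 genes on chromosome 19 the values were 0.03, 0.10 and 0.08 in shENO1, against -0.04, -0.07 and -0.06 in WT. For the 106 genes with a KRAB pattern they were 0.05, 0.09 and 0.06 in shENO1, against -0.03, -0.07 and -0.10 in WT. The groups did not overlap in either subset. The medians over all protein-coding genes tested did not overlap either, so this is not particular to the subsets. The gap in the subsets is small beside the fold changes of the genes that passed the test.

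**Figure D2:**
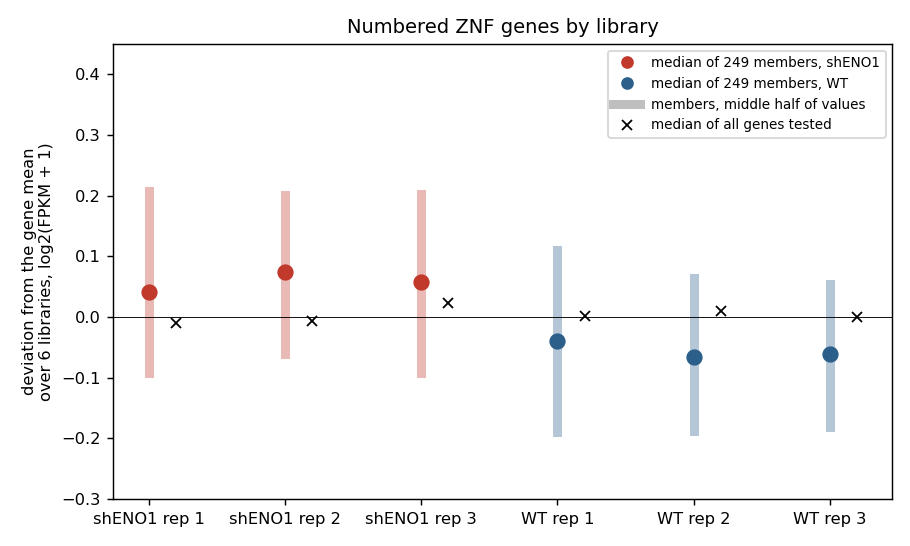
Circles are the medians of the 249 numbered ZNF genes' deviations from their own mean, on the log2(FPKM + 1) scale, in each of the 3 shENO1 and 3 WT libraries; bars span the interquartile range and crosses are the medians of all genes tested. The medians are above 0 in the 3 shENO1 libraries and below 0 in the 3 WT libraries, and the bars are wider than that gap.

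ZNF629 had the highest log2 fold change of the list. It lies on chromosome 16 (ENSG00000102870, GRCh38 chr16:30778449-30787202, minus strand) and encodes a C2H2 protein. It had 6.83, 5.35 and 7.74 FPKM in the shENO1 libraries, against 2.89, 2.56 and 2.27 FPKM in the WT libraries, and the groups were well apart. Its mean was 2.58-fold higher in shENO1 (log2 fold change 1.09, SE 0.14, limma adjusted p = 0.00852). ZNF672 (chr1:248838210-248849517, plus strand) had 26.1, 25.9 and 22.5 FPKM in shENO1 and 10.3, 11.1 and 16.2 FPKM in WT. WT replicate 3 was the highest of its group there but stayed under every shENO1 library (0.96, SE 0.17, adjusted p = 0.0179). ZNF689, a neighbour of ZNF629, had 5.08, 4.002 and 4.59 FPKM in shENO1, against 1.69, 1.55 and 2.48 FPKM in WT (0.94, SE 0.15, adjusted p = 0.0136). ZNF302 on chromosome 19 (chr19:34677639-34686397, plus strand), a KRAB zinc finger gene, had 3.70, 3.60 and 4.42 FPKM in shENO1, against 1.87, 1.79 and 1.32 FPKM in WT (0.89, SE 0.13, adjusted p = 0.0113). In each of these genes the groups did not overlap.

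ZNF438 on chromosome 10 (chr10:30820207-31031937, minus strand) had the lowest adjusted p of the genes that rose. Its levels were 13.4, 13.8 and 12.9 FPKM in shENO1 and 6.03, 6.86 and 7.66 FPKM in WT, which gave means of 13.4 ± 0.460 FPKM in shENO1 and 6.85 ± 0.818 FPKM in WT (SD, n = 3 each). Its log2 fold change was 0.88 with an SE of 0.10 (adjusted p = 0.00666). ZNF189 had 2.98, 4.22 and 3.21 FPKM in shENO1 and 1.49, 1.62 and 1.41 FPKM in WT (2.30-fold, adjusted p = 0.0145). ZNF777 had 5.78, 5.33 and 4.42 FPKM in shENO1 and 2.28, 2.16 and 3.37 FPKM in WT (1.99-fold, adjusted p = 0.0253). Again WT replicate 3 was the highest library of its group in ZNF777, without reaching the shENO1 values. ZNF747 had 1.55, 2.06 and 1.39 FPKM in shENO1 and 0.606, 0.422 and 0.752 FPKM in WT, a ratio of means of 2.80 that rests on 26 to 123 reads per library (adjusted p = 0.0362). ZNF431 on chromosome 19, a KRAB zinc finger gene, had 3.79, 4.38 and 3.45 FPKM in shENO1 and a narrow 1.97, 1.91 and 1.997 FPKM in WT (1.98-fold, adjusted p = 0.0121).

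The other 16 of the 25 genes rose by less, with log2 fold changes of 0.40 to 0.70. ZNF576 averaged 3.41 ± 0.334 FPKM in shENO1 and 1.72 ± 0.317 FPKM in WT. ZNF408, a gene known for inherited disease of the retina, averaged 2.93 ± 0.558 FPKM in shENO1 and 1.51 ± 0.233 FPKM in WT. ZNF319 averaged 4.66 ± 0.199 FPKM in shENO1 and 2.70 ± 0.688 FPKM in WT (SD, n = 3 each for the 3 genes). Their adjusted p-values were 0.0201, 0.0363 and 0.0352. The rest were ZNF362, ZNF202, ZNF282, ZNF646, ZNF584, ZNF784, ZNF574, ZNF37A, ZNF518B, ZNF691, ZNF687, ZNF35 and ZNF623. In the 6 fits without a single library ZNF584, ZNF784, ZNF37A, ZNF518B, ZNF35 and ZNF623 never kept their call. ZNF408, ZNF319, ZNF202, ZNF282, ZNF646 and ZNF691 kept theirs in 1 fit, ZNF574 in 2, and ZNF576, ZNF362 and ZNF687 in 3. In every one of the 25 the shENO1 libraries lay above the WT libraries. The genes were picked by a test on these same values, so this adds no support.

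**Figure D3:**
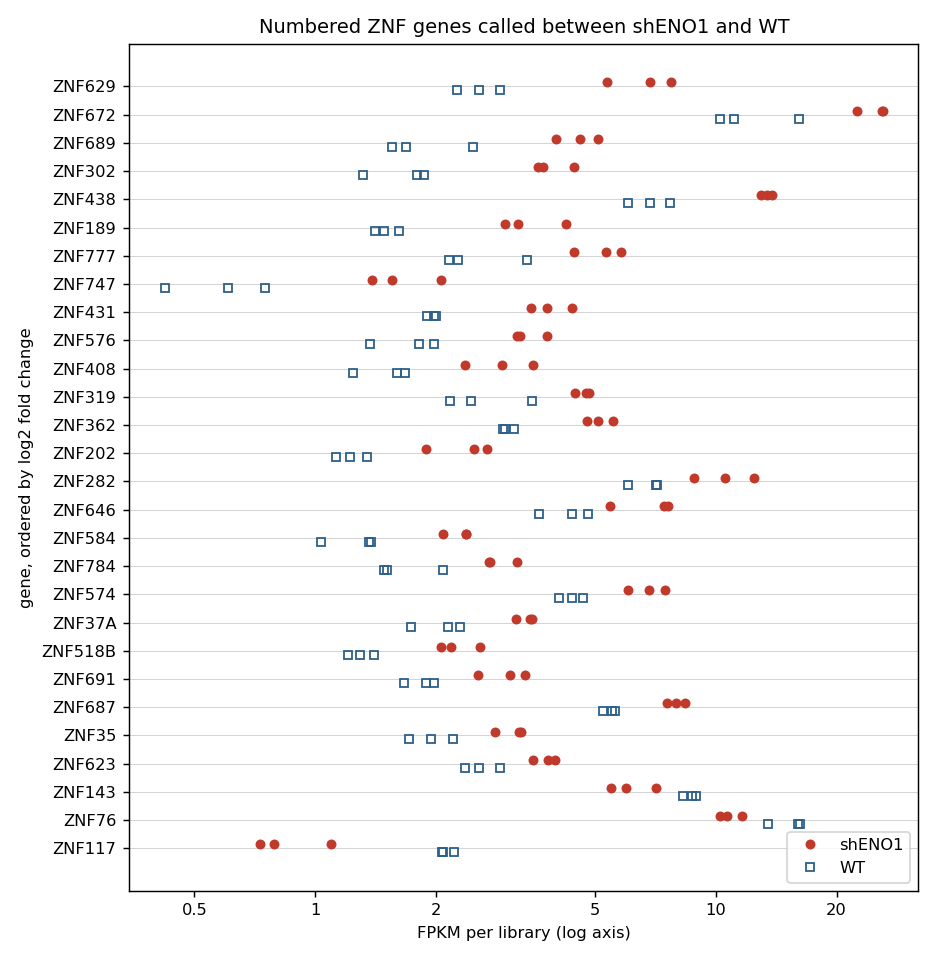
FPKM of the 28 numbered ZNF genes that passed the test, on a log axis, with 1 point for each of the 3 shENO1 libraries and 1 for each of the 3 WT libraries. The 25 genes that rose have every shENO1 point above every WT point, and ZNF117, ZNF76 and ZNF143 have every shENO1 point below.

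The 3 genes that fell include a pair of close relatives. ZNF143 is a sequence-specific activator of small nuclear RNA genes and of many protein-coding promoters, and ZNF76 is its paralog, with the same DNA motif; in both the translated protein held 7 fingers. ZNF143 had 5.48, 5.97 and 7.08 FPKM in shENO1, against 8.74, 8.94 and 8.27 FPKM in WT (log2 fold change -0.43, SE 0.11, limma adjusted p = 0.0416). ZNF76 had 11.6, 10.7 and 10.2 FPKM in shENO1, against 16.2, 16.1 and 13.5 FPKM in WT (-0.45, SE 0.10, adjusted p = 0.0354). All shENO1 libraries lay below all WT libraries in both. Each lost its call in 5 of the 6 fits without a single library (adjusted p of 0.0619 to 0.15 for ZNF143 and 0.0685 to 0.14 for ZNF76). ZNF143 kept it without shENO1 replicate 3 and ZNF76 without WT replicate 3, and scaling on nuclear genes left neither under the threshold (adjusted p = 0.0615 and 0.114). ZNF117 had 0.787, 1.10 and 0.727 FPKM in shENO1, against 2.08, 2.22 and 2.08 FPKM in WT (-0.75, SE 0.14, adjusted p = 0.0194), and it lost its call in 3 of the 6 fits, with 0.07 without shENO1 replicate 1, 0.0851 without WT replicate 1 and 0.0938 without WT replicate 2. ZNF117 shares its strand and part of its span on chromosome 7 with ERV3-1, a retroviral envelope gene of the genome, which fell too, to 1.16 ± 0.278 FPKM in shENO1, against 2.97 ± 0.661 FPKM in WT (SD, n = 3 each, adjusted p = 0.0234). Reads of the 2 genes cannot be told apart here.

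Neighbours and copies bear on the gene counts. Of the 249 genes 67 overlap another gene of at least 1 FPKM, as do 9 of the 28 that passed: ZNF689, ZNF438, ZNF747, ZNF431, ZNF319, ZNF646, ZNF584, ZNF687 and ZNF117. Whether reads were counted by strand is not given in the sources used here. RPL7AP10, a ribosomal protein pseudogene opposite ZNF431, rose with it, with 3.45 ± 0.691 FPKM in shENO1 and 1.44 ± 0.245 FPKM in WT (SD, n = 3 each, adjusted p = 0.0189). The other 7 partners, ERV3-1 aside, did not pass. ZNF37A averaged 3.36 ± 0.159 FPKM in shENO1 and 2.06 ± 0.294 FPKM in WT, and its pseudogene copy ZNF37BP, elsewhere on chromosome 10, averaged 2.25 ± 0.177 FPKM in shENO1 and 0.786 ± 0.151 FPKM in WT (SD, n = 3 each). The copies are alike in sequence, so their reads may have been shared between them, and the handling of reads with several matches is not given either.

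A stretch of chromosome 16 held 4 of the 25 genes that rose. The stretch chr16:30378106-31917357 (GRCh38) is a run of 14 numbered ZNF genes with neighbouring starts at most 1 Mb apart, 13 of them expressed here. ZNF629, ZNF689, ZNF747 and ZNF646 rose (30.8% of the 13), none fell, and the median log2 fold change was 0.33. In the 6 fits without a single library ZNF629 kept its call throughout and ZNF689 in 3. ZNF747 and ZNF646 kept theirs in 1 fit each. ZNF646 lay at the threshold with all libraries (limma adjusted p = 0.0498), and ZNF747 had a WT mean of 0.594 FPKM. In ZNF764, ZNF688 and ZNF768 as well, all shENO1 libraries lay above all WT libraries without passing the test, and in ZNF267 they lay below (5.58 ± 1.13 FPKM in shENO1 and 8.23 ± 0.547 FPKM in WT, SD, n = 3 each, adjusted p = 0.0554). ZNF768, the most abundant gene of the run, had 40.7, 34.2 and 39.9 FPKM in shENO1 and 28.8, 29.9 and 32.1 FPKM in WT (adjusted p = 0.0829). The other 25 protein-coding genes tested inside the same stretch had 3 that rose and 1 that fell, with a median of 0.11. The run was singled out after its values had been seen.

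The promoter bases below are from RefSeq on GRCh38.p14, the 250 bases before each gene's annotated start, written 5′ to 3′ on the gene's strand. ZNF629, ZNF689, ZNF747 and ZNF646 stand for the chromosome 16 run, ZNF189 and ZNF691 are shown with ZNF689 as the genes that rose and hold the ZNF143 core, and ZNF143 is the regulator of that motif, whose own call was lost in most fits without a single library. Capitals mark matches, on either strand, to CACGTG (the E-box), CCGGAAG (the ETS core), ACTACAA (the core of the ZNF143 motif), GGGCGG (the GC box) and AAGATGG (the YY1 core). Their positions are chr16:30787206-30787455 (minus strand) for ZNF629, chr16:30610434-30610683 (minus) for ZNF689, chr16:30534859-30535108 (minus) for ZNF747, chr16:31074172-31074421 (plus) for ZNF646, chr9:101398601-101398850 (plus) for ZNF189, chr1:42846363-42846612 (plus) for ZNF691 and chr11:9460762-9461011 (plus) for ZNF143.
ZNF629: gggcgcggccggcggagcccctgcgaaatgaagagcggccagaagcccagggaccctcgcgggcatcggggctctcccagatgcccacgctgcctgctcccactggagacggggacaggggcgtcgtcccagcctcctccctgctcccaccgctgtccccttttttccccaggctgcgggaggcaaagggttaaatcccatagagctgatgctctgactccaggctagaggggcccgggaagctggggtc
ZNF689: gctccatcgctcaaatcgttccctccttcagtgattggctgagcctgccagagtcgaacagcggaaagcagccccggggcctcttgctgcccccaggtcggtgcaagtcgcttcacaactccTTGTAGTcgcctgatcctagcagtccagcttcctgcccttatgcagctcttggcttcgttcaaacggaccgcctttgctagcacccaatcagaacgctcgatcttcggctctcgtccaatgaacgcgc
ZNF747: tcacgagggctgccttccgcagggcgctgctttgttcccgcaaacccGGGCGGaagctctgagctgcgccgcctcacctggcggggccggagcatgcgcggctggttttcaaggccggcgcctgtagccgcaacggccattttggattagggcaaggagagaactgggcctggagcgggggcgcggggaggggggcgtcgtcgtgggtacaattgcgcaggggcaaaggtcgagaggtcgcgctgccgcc
ZNF646: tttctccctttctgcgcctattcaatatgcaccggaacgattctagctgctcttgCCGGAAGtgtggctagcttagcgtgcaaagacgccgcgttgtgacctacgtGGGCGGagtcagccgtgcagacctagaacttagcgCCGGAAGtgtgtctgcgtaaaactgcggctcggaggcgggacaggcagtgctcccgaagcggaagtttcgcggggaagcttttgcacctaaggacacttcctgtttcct
ZNF189: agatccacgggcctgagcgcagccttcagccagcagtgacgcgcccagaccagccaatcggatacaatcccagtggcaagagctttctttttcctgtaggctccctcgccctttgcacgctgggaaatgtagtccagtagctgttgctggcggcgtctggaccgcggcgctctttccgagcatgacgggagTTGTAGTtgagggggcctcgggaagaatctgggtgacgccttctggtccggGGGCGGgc
ZNF691: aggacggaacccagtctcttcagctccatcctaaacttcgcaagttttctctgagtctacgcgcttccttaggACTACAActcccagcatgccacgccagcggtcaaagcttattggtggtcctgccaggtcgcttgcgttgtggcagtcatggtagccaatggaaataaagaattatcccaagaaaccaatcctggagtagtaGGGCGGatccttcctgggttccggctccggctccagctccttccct
ZNF143: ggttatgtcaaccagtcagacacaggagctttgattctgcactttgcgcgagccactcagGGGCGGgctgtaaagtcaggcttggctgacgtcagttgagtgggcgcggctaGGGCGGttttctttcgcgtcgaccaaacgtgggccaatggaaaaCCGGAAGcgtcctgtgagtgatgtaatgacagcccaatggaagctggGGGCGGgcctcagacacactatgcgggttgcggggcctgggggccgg

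The 4 promoters of the chromosome 16 run did not share a match. ZNF646 held 2 ETS cores and a GC box, ZNF747 held a GC box, ZNF689 held a ZNF143 core, and ZNF629 held none of the 5 motifs. For ZNF689 and ZNF189 the RefSeq start does not lie in the first part of a GENCODE transcript of the gene, and a RefSeq start need not be the gene start of the table.

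Over the whole list, promoters of 213 of the 249 genes were in the RefSeq table, 23 of the 25 that rose and 2 of the 3 that fell. Both strands were read, and matches of different motifs overlapped in 1 of the 213 promoters and in 0 of the 7 printed ones. The ETS core was in 34.8% of the promoters of genes that rose (8 of 23), in 32.4% of all ZNF promoters (69), in 17.7% of the 8091 promoters of protein-coding genes tested and in 8.82% of all 27305 promoters. The ZNF143 core was in 13.04% of the promoters of genes that rose (3 of 23), in 7.04% of all ZNF promoters (15), in 4.03% of those of protein-coding genes tested and in 2.64% of all. Both motifs were thus more frequent in ZNF promoters than in protein-coding promoters at large. The GC box was in 60.9%, 62.4%, 68.9% and 42.3% of the same 4 sets, the E-box in 0%, 6.10%, 9.41% and 6.49%, and the YY1 core in 0%, 3.76%, 3.65% and 3.77%. Of the 15 ZNF genes with a ZNF143 core 3 rose and none fell (median log2 fold change 0.26), and of the 69 with an ETS core 8 rose and 1 fell (0.08). The other 12 genes with a ZNF143 core did not pass, and of the 15 the log2 fold change was positive in 9 and negative in 6. Whether ZNF143 acts on these genes was not tested. A match is a description of letters and not a site in use.

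Chromosome 19 carried 246 of the numbered genes but a smaller part of them was expressed, 94 (38.2%) against 155 of 263 on the other chromosomes (58.9%). On chromosome 19, 6 genes rose and none fell by limma (21 higher and 1 lower at an unadjusted p under 0.05), with a median log2 fold change of 0.12; elsewhere 19 rose and 3 fell, with a median of 0.08. Of 635 other protein-coding genes tested on chromosome 19, 8.66% rose and 4.25% fell, with a median of 0.01. At an unadjusted p under 0.05, 116 of these 635 were higher and 81 lower. The 6 genes were ZNF302, ZNF431, ZNF576, ZNF584, ZNF784 and ZNF574. At an adjusted p under 0.1 the chromosome 19 counts were 13 higher and 1 lower, and limma-voom on the recovered reads gave 12 higher and 0 lower.

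The 10 runs of at least 3 numbered genes on chromosome 19 (numbered in order of position) held 89 of the 94 expressed genes, and 4 runs held a gene that rose. The largest, run 10 at 55.5 to 58.5 Mb near the long arm's end, held 59 numbered genes, of which 34 were expressed; ZNF584 and ZNF784 rose, and 11 lay above WT in all libraries against 3 below. Run 9, at 51.6 to 53.6 Mb, held 14 expressed genes of 39, and none rose or fell. Of the 14, 7 lay above WT in all libraries and none below (median log2 fold change 0.17). Over all genes tested 19.6% lay above WT in all libraries and 17.9% below, and over protein-coding genes 23.3% and 16.5%. Over the whole ZNF list the shares were 30.5% and 10.04%. Whether a run differs from these shares was not tested. The runs at 19.7 to 24.1 Mb (run 4, 8 expressed of 37), near 34.7 Mb (run 5, 1 of 5) and 43.5 to 45.1 Mb (run 8, 10 of 24) held ZNF431, ZNF302 and ZNF576 as their only genes that rose. Run 6, at 36.2 to 37.8 Mb, had 9 expressed genes of 26, none that rose or fell and a median of -0.06. Runs 2 and 3, at 7.1 to 9.8 Mb and 11.5 to 12.6 Mb, had 5 expressed genes each, of 15 and 25, with none that passed.

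The most abundant gene of each run varied in its pattern. ZNF146, which encodes a protein made almost only of fingers, led the run at 36.2 Mb with 38.1, 42.0 and 50.3 FPKM in shENO1 and 36.6, 37.5 and 35.6 FPKM in WT (adjusted p = 0.232). Every shENO1 library lay above WT, with replicate 3 the highest. ZNF524 led the run at 55.5 Mb with 21.7, 16.4 and 17.4 FPKM in shENO1 and 10.9, 13.5 and 15.02 FPKM in WT (adjusted p = 0.0876). ZNF83 led the run at 51.6 Mb with 10.9 ± 1.51 FPKM in shENO1 and 12.2 ± 0.580 FPKM in WT, and ZNF317 that at 7.1 Mb with 9.78 ± 0.306 FPKM in shENO1 and 7.98 ± 0.296 FPKM in WT (SD, n = 3 each; adjusted p = 0.379 and 0.0699). ZNF428, at the head of the run at 43.5 Mb, had a wide spread within both groups: it had 12.3, 8.54 and 21.2 FPKM in shENO1 and 18.4, 19.6 and 9.09 FPKM in WT. Replicate 3 was the highest in shENO1 and the lowest in WT there. Without replicate 3 of both groups the log2 fold change of ZNF428 was -0.83 (adjusted p = 0.0224, against -0.18 and 0.793 with all libraries). Leaving out the libraries that ran against the difference had to make it larger, so nothing is read from that fit. Over all 12809 genes tested 1649 rose and 2033 fell in it. ZNF700, ZNF780B and ZNF555, which led smaller runs, had log2 fold changes of 0.24, 0.28 and -0.11 and did not pass.

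**Figure D4:**
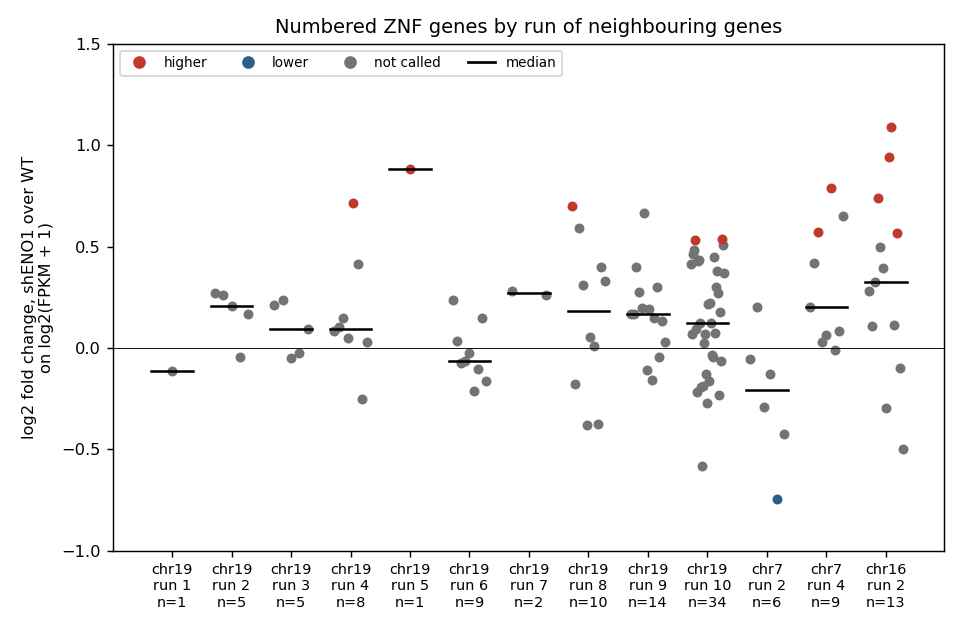
Log2 fold change of shENO1 over WT, on the log2(FPKM + 1) scale, of each numbered ZNF gene in the 10 chromosome 19 runs and in the runs of at least 6 expressed genes on other chromosomes. Genes that rose or fell are coloured, and the line of each run is its median; the chromosome 16 run at 30.4 Mb has a median of 0.33 and the chromosome 7 run at 64.0 Mb one of -0.21.

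On chromosome 7 a pair of runs, numbered 2 and 4, went opposite ways by their medians. The run at 149.1 to 150.4 Mb had 9 expressed genes, of which ZNF282 and ZNF777 rose and 8 had a positive log2 fold change. ZNF282, known as a repressor that binds the long terminal repeat of a human leukaemia virus, had 10.6, 8.82 and 12.4 FPKM in shENO1 and 7.09, 7.14 and 6.05 FPKM in WT (adjusted p = 0.0379). The run at 64.0 to 65.4 Mb had 6 expressed genes and a median of -0.21. ZNF117 fell there, and ZNF92 and ZNF273 lay below WT in all libraries without passing, with ZNF92 at 6.35 ± 1.13 FPKM in shENO1 and 8.80 ± 0.571 FPKM in WT (SD, n = 3 each, adjusted p = 0.0761). Whether the 2 runs differ was not tested.

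Protein structure, read from the longest GENCODE coding sequence of each gene, was not used to choose the genes. The proteins had a median of 577 residues and of 9 fingers, with a range of 0 to 31 fingers. A KRAB pattern was found in 106 of the 249 (42.6%), in 60.6% of those on chromosome 19 and 31.6% of the others. Of the 106 with the pattern 8 rose (7.55%) and none fell by limma, with a median log2 fold change of 0.12. At an unadjusted p under 0.05, 24 of them were higher and 2 lower. At the same p 1945 of the 10032 protein-coding genes tested were higher and 1312 lower. Of the 143 without the pattern 17 rose (11.9%) and 3 fell (2.10%), with a median of 0.08. A KRAB box that departs from the pattern goes uncounted, so these genes are not shown to lack one. Over all genes tested 7.86% rose and 6.46% fell, and over protein-coding genes 9.51% and 5.45%. The shares that rose were thus near these backgrounds, and whether the KRAB classes differ was not tested. A looser pattern put 119 genes in the KRAB class, of which 9 rose and none fell. By fingers, 3 of 39 genes with 1 to 4 fingers rose (7.69%) and 10 of 81 with 5 to 9 (12.3%). Of 80 genes with 10 to 14 fingers 8 rose (10%), and of 42 with 15 or more 4 rose (9.52%). These shares were near the same backgrounds. None of the 7 genes without a matching finger rose. ZNF142, with the most fingers, had a log2 fold change of 0.39 (adjusted p = 0.118).

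A list of 40 ZNF genes with well described roles had 30 at a mean of at least 1 FPKM, of which 2 rose and 1 fell, the last being ZNF143. These counts are near the shares over all genes tested (7.86% and 6.46%). ZNF202, a repressor of genes of lipid metabolism, had 2.49, 1.89 and 2.69 FPKM in shENO1 and 1.13, 1.22 and 1.35 FPKM in WT (log2 fold change 0.58, SE 0.14, adjusted p = 0.0408). ZNF687, a partner of ZMYND8 and ZNF592 in a chromatin complex, had 8.37, 7.55 and 7.94 FPKM in shENO1 and 5.22, 5.60 and 5.50 FPKM in WT (0.47, SE 0.08, adjusted p = 0.0167). The groups did not overlap in either gene. ZNF592 itself averaged 11.6 ± 1.48 FPKM in shENO1 and 11.1 ± 1.03 FPKM in WT (SD, n = 3 each, adjusted p = 0.801).

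Among the KRAB repressors of known targets, ZNF274, which recruits SETDB1 to the ends of ZNF genes themselves, averaged 3.95 ± 0.422 FPKM in shENO1 and 3.37 ± 0.255 FPKM in WT (SD, n = 3 each, adjusted p = 0.299). ZNF93, a repressor of LINE elements, and ZNF445, a keeper of imprints, had log2 fold changes of 0.15 and -0.06 and did not pass (adjusted p = 0.491 and 0.817). Of ZNF genes that act on RNA and ribosomes, ZNF598, the ubiquitin ligase that senses collided ribosomes, averaged 16.2 ± 2.33 FPKM in shENO1 and 14.8 ± 2.29 FPKM in WT, and ZNF622, a factor of large ribosomal subunit maturation, had a log2 fold change of -0.19 (adjusted p = 0.612 and 0.403). ZNF217, an oncogene amplified in breast cancer, averaged 24.2 ± 2.39 FPKM in shENO1 and 26.1 ± 0.868 FPKM in WT (SD, n = 3 each, adjusted p = 0.503). ZNF384, a partner in fusion genes of acute leukaemia, had a log2 fold change of -0.04 (adjusted p = 0.885). A p that misses the threshold does not show that these genes were equal. Of the 10 listed genes under the level, ZNF350 and ZNF593 were listed at 0 in all libraries, and ZNF10 and ZNF91 were among the others.

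The 5 most abundant ZNF genes did not pass with all libraries and FPKM as deposited. Behind ZNF146 and ZNF768, ZNF664 had 26.6, 26.3 and 36.2 FPKM in shENO1 and 35.7, 38.1 and 28.7 FPKM in WT (adjusted p = 0.455). ZNF24, a SCAN domain protein, had 22.3, 22.8 and 24.9 FPKM in shENO1 and 29.8, 30.4 and 26.8 FPKM in WT, with every shENO1 library below WT (adjusted p = 0.0792). ZNF330, a nucleolar protein, had 21.7, 23.2 and 29.4 FPKM in shENO1 and 27.8, 27.3 and 22.7 FPKM in WT (adjusted p = 0.772). In ZNF664 and ZNF330 the groups overlapped, with replicate 3 the highest of shENO1 and the lowest of WT. Without replicate 3 of both groups ZNF664 and ZNF24 passed as lower, with log2 fold changes of -0.46 and -0.40, against -0.20 and -0.30 with all libraries (adjusted p = 0.0173 and 0.0222). In ZNF24 too replicate 3 was the highest of shENO1 and the lowest of WT, so leaving it out had to make both changes larger. Over all 12809 genes tested 1649 rose and 2033 fell in that fit. ZNF768 passed as higher with nuclear scaling and by limma-voom (adjusted p = 0.0351 and 0.0482).

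A list of 30 genes, chosen with earlier results known, covered the machinery that KRAB proteins call on together with other silencing genes. All of them reached 1 FPKM. Each gene was tested on its own, and the list as a whole was not tested. Of these 5 rose (16.7%), 1 fell (3.33%) and 24 did not pass, against 9.51% and 5.45% of protein-coding genes and 7.86% and 6.46% of all genes tested, and the median log2 fold change was 0.00. FAM208A, which encodes TASOR of the HUSH silencing complex, had 18.5, 22.1 and 15.7 FPKM in shENO1 and 10.9, 10.3 and 12.9 FPKM in WT (0.67, SE 0.15, adjusted p = 0.0311). MORC2, an ATPase that works with HUSH, averaged 6.28 ± 0.367 FPKM in shENO1 and 4.12 ± 0.220 FPKM in WT (adjusted p = 0.0164). SMARCAD1, a chromatin remodeller that binds TRIM28, averaged 4.997 ± 0.176 FPKM in shENO1 and 2.96 ± 0.417 FPKM in WT (SD, n = 3 each for both, adjusted p = 0.0177). The groups did not overlap in any of the 3. FAM208A lost its call with equal FPKM totals (adjusted p = 0.0557) and in 4 of the 6 fits without a single library (0.0644 to 0.116), while MORC2 and SMARCAD1 each lost it in 3 of the 6, without shENO1 replicate 1, WT replicate 1 or WT replicate 2 (0.0657 to 0.0795 and 0.0665 to 0.0761).

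The lysine methyltransferase genes SUV39H1 and SUV39H2 rose as well, to means of 17.0 ± 2.18 and 5.20 ± 0.472 FPKM in shENO1, against 11.9 ± 0.436 and 3.62 ± 0.0974 FPKM in WT (SD, n = 3 each, adjusted p = 0.0364 and 0.0324). SUV39H1 kept its call in 1 of the 6 fits without a single library, that without shENO1 replicate 2 (0.0654 to 0.122 in the others), and SUV39H2 in none of them (0.0536 to 0.124). SUV39H2 also lost it with equal FPKM totals (0.0554) and with the gene length trend removed (0.0595). DNMT3B, a de novo DNA methyltransferase, fell to 7.09, 7.05 and 6.64 FPKM in shENO1, against 11.2, 10.6 and 10.2 FPKM in WT (-0.56, SE 0.08, adjusted p = 0.0111; 0.0617 without WT replicate 1 and 0.0606 without WT replicate 2). TRIM28 had 174, 154 and 127 FPKM in shENO1 and 101, 102 and 142 FPKM in WT (adjusted p = 0.186). The groups overlapped through shENO1 replicate 3 and WT replicate 3. SETDB1 averaged 8.75 ± 0.189 FPKM in shENO1 and 9.86 ± 0.375 FPKM in WT, with all shENO1 libraries below all WT libraries (adjusted p = 0.224). MPHOSPH8 and PPHLN1, the other HUSH subunits, did not pass.

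Of 32 ZBTB genes, a related zinc finger family, 3 rose (9.38%) and 5 fell (15.6%), against 7.86% and 6.46% of all genes tested and 9.51% and 5.45% of protein-coding genes. Of 9 numbered ZFP genes 1 rose, and of 7 ZSCAN and 5 ZKSCAN genes none passed (limma; at an unadjusted p under 0.05 no ZSCAN gene, 2 higher and 1 lower ZKSCAN genes). By the table's own family column 211 of the 249 genes are zf-C2H2, of which 23 rose and 3 fell, and of the other 38 genes 2 rose and none fell.

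At the edge of the level rule, ZNF641, ZNF2 and ZNF721 lay just outside with means of 0.964, 0.975 and 0.985 FPKM. ZNF337, ZNF221 and ZNF79 lay just inside with means of 1.02, 1.03 and 1.05 FPKM. Just short of the test's threshold lay ZNF45 and ZNF480 of chromosome 19, with all shENO1 libraries above WT: ZNF45 averaged 2.77 ± 0.185 FPKM in shENO1 and 1.53 ± 0.461 FPKM in WT, and ZNF480 averaged 5.06 ± 0.603 FPKM in shENO1 and 2.87 ± 0.871 FPKM in WT (SD, n = 3 each, adjusted p = 0.0506 and 0.0545).

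The number of genes that passed depended on single libraries. Without WT replicate 1 or without WT replicate 2, 3 ZNF genes rose and none fell, without shENO1 replicate 1 4 rose and none fell, and without shENO1 replicate 2 16 rose and 1 fell. Without shENO1 replicate 3 11 rose and 3 fell, and without WT replicate 3 15 rose and 3 fell. ZNF438, ZNF302 and ZNF629 were the only genes that rose in all 6 of these fits. ZNF189 rose in 4, ZNF689 and ZNF431 in 3, ZNF672 and ZNF777 in 2 and ZNF747 in 1. Over all genes the counts shrank alongside, to 147 higher and 134 lower without WT replicate 1. Without replicate 3 of both groups, 32 ZNF genes rose and 20 fell, and over all genes 1649 rose and 2033 fell. All 28 genes kept their direction in every setting in which they were tested. Where libraries were left out, or the pseudocount, filter or threshold changed, the non-overlap of their groups fixed this in advance. Only settings that rescale or adjust the values could have changed a direction.

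**Figure D5:**
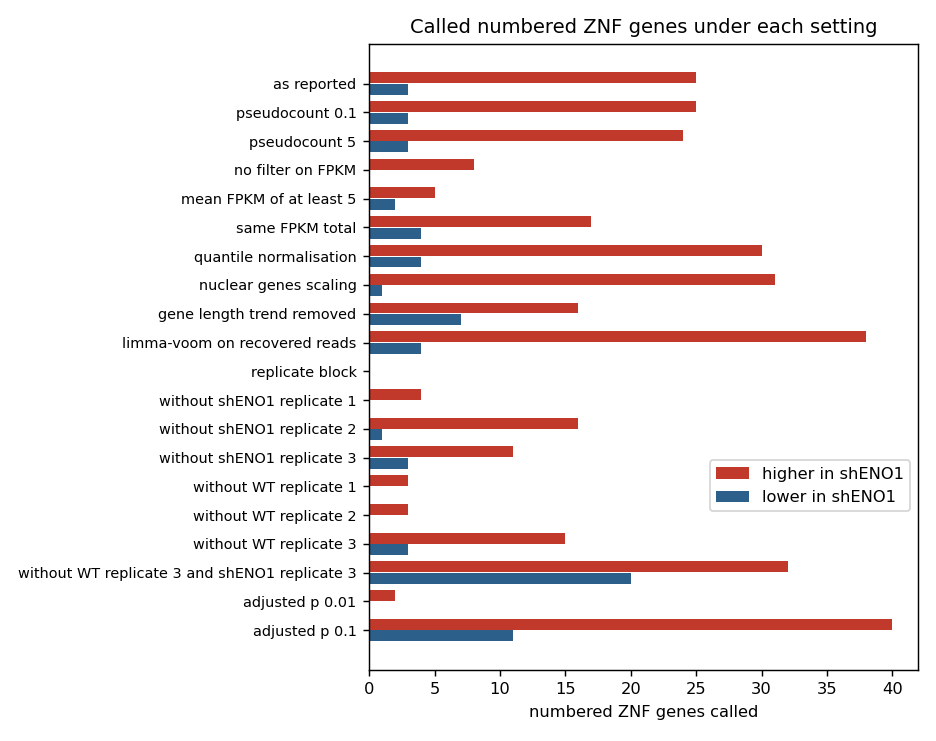
Bars give the number of the 249 numbered ZNF genes that rose (upper bar) or fell (lower bar) in shENO1 under each setting of the analysis, from 0 upward; in the setting with a mean of at least 5 FPKM 75 genes were tested. The counts as reported are 25 and 3, and they range from 0 and 0 with a replicate block to 40 and 11 at an adjusted p of 0.1, or 32 and 20 without replicate 3 of both groups.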

How the data were processed

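RNA sequencing of total RNA (Illumina TruSeq kit, per the labels) gave 1 FPKM value per gene and library, deposited by the authors in 1 table; STAR, Cufflinks, Cuffnorm and the build hg38 are named in the submitters' processing notes, without versions or strand settings. FPKM multiplied by gene length was divided by the smallest such value above 0 in each library, taken as 1 read. The result was a whole number in 100% of values above 0 (tolerance 0.001), which gave the depth. The 12809 genes whose FPKM averaged 1 or more entered limma 3.58.1 (R 4.3.3) as log2(FPKM + 1) values (empirical Bayes with trend, Benjamini-Hochberg adjustment). Because 1 is added, log2 fold changes understate the change of low genes; folds are ratios of mean FPKM, and SE is the moderated standard error. Alternatives covered the pseudocount, filter, scaling, gene length, limma-voom on recovered reads, a replicate block, thresholds and leaving out libraries. Same-numbered libraries of the 2 groups correlated in their deviations at -0.0846, -0.334 and -0.459, so these values show no pairing by number. Whether same-numbered libraries shared a batch was not tested.

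The genes and lists were chosen with earlier results of these data known. Named genes are those that passed with the 12 largest changes each way and no overlap, the 5 most abundant, the top gene of each chromosome 19 run, the 3 nearest the level rule on each side, the list of known roles and the changed corepressor genes; others were named after their values had been seen. Coordinates are the table's, on GRCh38. Runs join numbered genes at most 1 Mb apart. Fingers (2 cysteines and 2 histidines at fixed spacing) and the KRAB pattern were read in translated GENCODE release 29 coding sequences, because RefSeq proteins were not used here. The test was tried on simulated reads. Figures were drawn with matplotlib 3.10.9. The result of 1 marker gene is not reported here.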

Additional observations from a re-analysis of the deposited data

How the results depend on the processing

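The count of 25 ZNF genes that rose became 8 with no filter on FPKM, 5 among the 75 genes that average 5 FPKM or more, 16 with the gene length trend removed, 38 by limma-voom, 32 without replicate 3 of both groups, 2 at an adjusted p under 0.01 and 40 at 0.1. The count of 3 that fell became 0 with no filter, 1 when libraries were scaled on nuclear genes, 7 with the gene length trend removed, 20 without replicate 3 of both groups, 0 at an adjusted p under 0.01 and 11 at 0.1. Leaving out single libraries gave 3 to 16 that rose and 0 to 3 that fell. Over all genes tested the 1007 that rose and 828 that fell became 445 and 381 with no filter (31500 genes). At 5 FPKM or more they were 693 and 555 (7329 genes), and with the length trend removed 946 and 933. By limma-voom they were 1512 and 868, and without replicate 3 of both groups 1649 and 2033. Adjusted p thresholds of 0.01 and 0.1 gave 177 and 126, and 1607 and 1426. Single libraries left out gave 147 to 914 and 134 to 775. On chromosome 19 the 6 that rose became 2 with no filter, 1 at 5 FPKM or more, 10 after quantile normalisation, 12 by limma-voom, 11 without replicate 3 of both groups (with 4 that fell), 0 at an adjusted p under 0.01 and 13 at 0.1 (with 1 that fell), and 1 to 5 without single libraries. With the replicate block none rose or fell, on chromosome 19 or elsewhere, and 1 gene passed among all tested. The deviations of same-numbered libraries showed no pairing, and why the calls were lost was not tested. The median log2 fold change of the list, 0.094, was 0.121 and 0.047 with pseudocounts of 0.1 and 5, -0.020 at 5 FPKM or more, 0.063 with equal FPKM totals, 0.146 after quantile normalisation, 0.176 with nuclear scaling, 0.059 with the length trend removed and 0.167 by limma-voom; single libraries left out gave 0.085 to 0.110. Nuclear scaling moved the median of all genes to 0.080, against -0.017, and gave 1396 that rose and 501 that fell over all genes, against 1007 and 828. The causes were not tested. The edgeR fits planned on recovered reads, with TMM and with DESeq2 size factors, were not run. Low depth limits genes such as ZNF747, with as few as 26 reads in a library.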

Other observations

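Noncoding transcripts named after ZNF genes were few at a level that allowed a test, and their difference from the protein-coding list was not tested. Of 35 antisense, intronic and divergent ZNF transcripts listed, 6 were tested and none passed (limma, adjusted p under 0.05). Without adjustment 2 of the 6 were lower at p under 0.05, as were 1972 of all 12809 genes tested. ZNF436-AS1 averaged 1.70 ± 0.316 FPKM in shENO1 and 2.84 ± 0.702 FPKM in WT, and ZNF674-AS1 averaged 3.87 ± 0.849 FPKM in shENO1 and 5.57 ± 0.673 FPKM in WT (SD, n = 3 each, adjusted p = 0.107 and 0.109). In both, all shENO1 libraries lay below all WT libraries. Of 77 ZNF pseudogenes 4 were tested, and ZNF37BP was the one that rose, while ZNF767P, ZNF271P and ZNF815P had log2 fold changes of -0.06, -0.10 and -0.02.

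The 260 numbered genes under 1 FPKM differed from the expressed ones in the make-up of their proteins, as a description. A KRAB pattern was found in 59.9% of the 182 genes above 0 and under 1 FPKM and in 60.3% of the 78 genes with no read, against 42.6% of the 249 expressed genes. An overlap with another gene on the same strand was present in 42.9% and 39.7% of these sets, against 34.1% of the expressed genes. Counting overlaps on either strand, the shares were 70.9% and 68.0% of these sets, against 70.3% of the expressed genes.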
